A study of Homo sapiens with 6 samples.

Results

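The genes of the CEACAM family measured here were CEACAM1, CEACAM5, CEACAM6, CEACAM7, CEACAM8 and CEACAM19. They were chosen by name, as every non-control spot of the array that carried one of these 6 symbols, which gave 6 of 36337 gene names and 8 of 50599 probes on the array. RNA came from subcutaneous xenografts of the human line BxPC-3, derived from a pancreatic adenocarcinoma, grown in female BALB/c (nu/nu) mice that were 8 to 10 weeks old when the experiments began. From tumors of 150 mm3 onward, 3 mice received 200 mg/kg deferasirox (DFX), an oral iron chelator, suspended in saline, by gavage 3 times per week for 21 days, and 3 control mice received the vehicle alone. Both groups therefore share the cell line, the host strain and the injection site, and differ in treatment. The paper chose these tumors at random from larger groups. It reports that tumors of mice given this dose were on average smaller at the end than those of control mice. Tumor size and treatment therefore cannot be told apart here. Nude mice lack T cells but keep other host leukocytes, fibroblasts and vessels, and a removed tumor holds host cells beside the human tumor cells. Each tumor was hybridized to its own one-color human array of 60-mer probes.

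CEACAM proteins are cell surface glycoproteins of the immunoglobulin superfamily that bind each other on neighboring cells. CEACAM1 spans the membrane, and its long forms carry inhibitory tyrosine motifs in the cytoplasmic tail that recruit the phosphatases encoded by PTPN6 and PTPN11. CEACAM5 (carcinoembryonic antigen), CEACAM6, CEACAM7 and CEACAM8 are held in the membrane by a glycosylphosphatidylinositol (GPI) anchor. CEACAM5 and CEACAM6 are known for high expression in adenocarcinomas of the pancreas and colon, CEACAM7 for its place on the apical surface of colon and pancreatic duct epithelium, and CEACAM8 as a surface marker of granulocytes.

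The probe sequences are shown because members of this family resemble each other in sequence, so that each value depends on which stretch of the transcript was probed. All are written 5′ to 3′ as deposited. Capitals mark the longest run that the CEACAM5 probe and the CEACAM1 probe A_33_P3268507 have in common, which was 8 bases. In the closest alignment of these 2 probes, given below, the 2 copies of this run do not face each other. These 2 probes and that of CEACAM19 are given whole, and the others by their first 30 bases.
CEACAM1, A_33_P3268507: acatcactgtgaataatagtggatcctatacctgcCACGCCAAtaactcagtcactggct
CEACAM1, A_24_P382319: ccatgctgtgctgtgttatttaatttttcc
CEACAM5, A_23_P153301: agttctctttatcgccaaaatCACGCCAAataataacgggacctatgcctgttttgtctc
CEACAM6, A_23_P218442: acactcatctgactcattctttattctatt
CEACAM7, A_24_P228302: aatgcacggtggtccctgttagagttagac
CEACAM7, A_33_P3254844: tcagagctaaccaaaatgttcaacaccata
CEACAM8, A_23_P380240: tagtccacccaatggctgacagtaacagca
CEACAM19, A_23_P78526: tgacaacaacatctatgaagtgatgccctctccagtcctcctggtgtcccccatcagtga

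Each member probe was set against every other CEACAM and PSG probe of the array without gaps, over an overlap of at least 40 bases. The closest pair was CEACAM5 with the PSG1 probe A_23_P50697, with 38 of 60 bases identical (63.3%). Between members it was CEACAM5 with CEACAM1 A_33_P3268507, with 26 identical bases over an overlap of 43 (60.5%). The longest run shared by any of these pairs was 9 bases. No other probe of the 50599 shared a run of 20 bases with a member probe on either strand. The transcripts themselves were not searched, so binding of one probe to the RNA of a related gene was not tested. The GC content of the 8 probes was 35.0% to 51.7%.

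By the array annotation on hg19, the member probes lie on chromosome 19. From left to right, CEACAM7 is probed at chr19:42178108-42178167 and chr19:42178454-42178513 (minus strand), CEACAM5 at chr19:42224984-42225043 and CEACAM6 at chr19:42275434-42275493 (both plus strand). CEACAM1 is probed at chr19:43011504-43011563 and chr19:43025455-43025514 and CEACAM8 at chr19:43084506-43084565, all on the minus strand. The CEACAM19 probe lies apart from these, at chr19:45184500-45184559 on the plus strand. In the RefSeq table of GRCh38.p14, used for gene order only, CEACAM7, CEACAM5 and CEACAM6 follow each other directly among protein-coding genes, and CEACAM1 and CEACAM8 are direct neighbors. The array annotation does not give exons or untranslated regions.

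The arrays were alike in depth. On each array the scanner software placed 50.3% to 56.5% of probes well above background, and the correlation between arrays over the 31807 tested probes was 0.980 to 0.990. All 6 arrays lay on 1 slide, with control tumors in row 1 and DFX-treated tumors in row 2, so that slide row and treatment cannot be told apart. Values below are log2 of the background-subtracted signal after quantile normalization. A probe was tested with limma when its detection p-value was under 0.05 on all 6 arrays. The signal of a probe depends on its sequence, so levels of different probes are not compared. Nothing in the labels says more of the origin of each tumor than its treatment, and the p-values measure the spread between these 3 tumors per group.

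To ask whether DFX changed expression of the CEACAM genes, the DFX-treated tumors were compared with the control tumors. CEACAM1, CEACAM5, CEACAM6, CEACAM7 and CEACAM19 were well above background in all 6 tumors, and CEACAM8 was so in none. No member differed between the groups beyond the spread between tumors. Of the 7 tested member probes, 0 were called by limma at an unadjusted p under 0.05, where 8.41% of all tested probes were (3.46% higher and 4.95% lower in DFX-treated tumors). A linear model with unmoderated variances also called 0 of the 7. So did the Kruskal-Wallis H test, which with 3 against 3 tumors calls only probes whose groups do not overlap. The groups overlapped for every tested member probe. Over all tested probes, 15.5% did not overlap (6.34% higher and 9.15% lower in DFX-treated tumors). Counts of 0 among 7 probes cannot be told apart from these shares over the array, 8.41% called and 15.5% not overlapping. No probe of the array passed an adjusted p under 0.05 in limma. Since the tumors are bulk samples, a different number of expressing cells and a different amount of RNA per cell cannot be told apart.

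**Figure D1:**
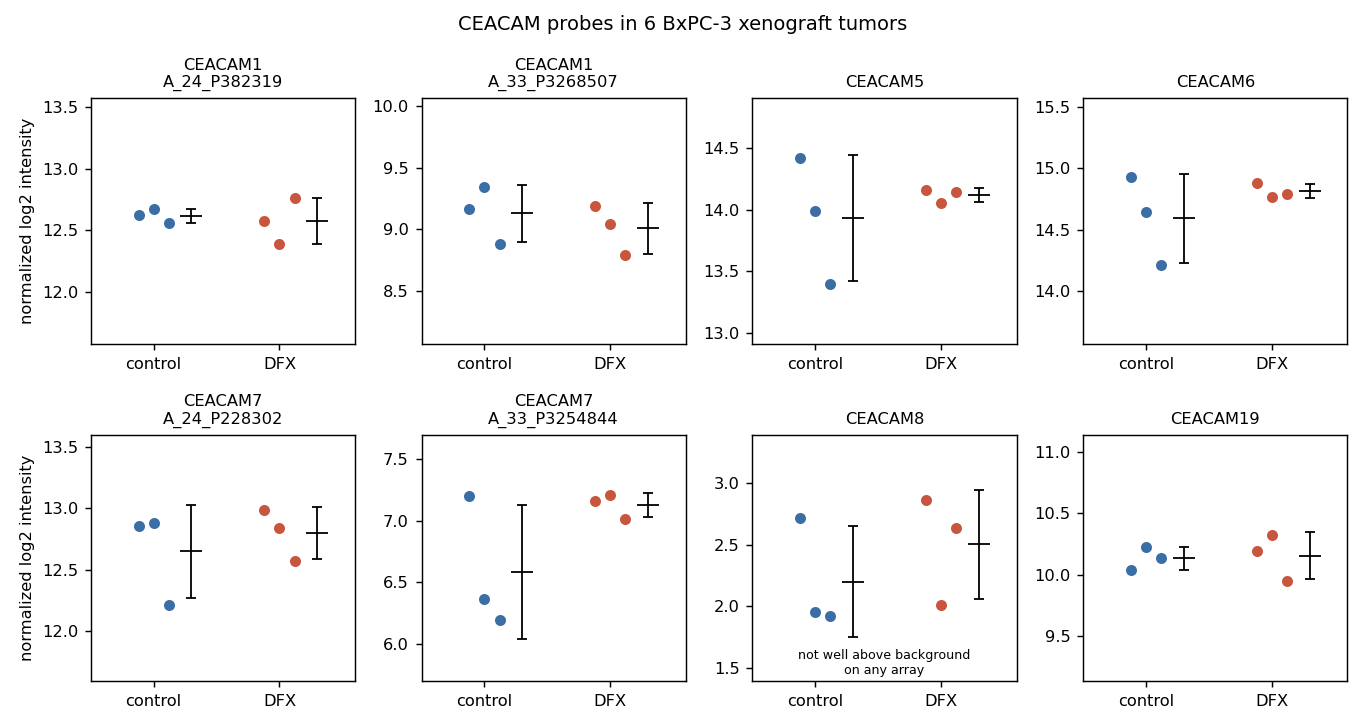
Normalized log2 intensity (vertical axis, each panel spanning 2 log2 units) of each CEACAM probe in the control and DFX-treated tumors. Points are single tumors in the order of replicates 1 to 3, and bars give the mean ± SD (n = 3). The points of both groups overlap in every panel, and the control tumors are spread more widely than the DFX-treated tumors for CEACAM5, CEACAM6 and CEACAM7 A_33_P3254844.

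CEACAM5, the carcinoembryonic antigen used as a serum tumor marker, had log2 intensities of 14.42, 13.99 and 13.40 in control replicates 1, 2 and 3. The DFX-treated tumors had 14.16, 14.05 and 14.14. All 3 DFX-treated tumors thus lay between control replicates 1 and 2, and control replicate 3 was the lowest. The mean was 13.93 ± 0.51 (SD, n = 3) in control and 14.12 ± 0.056 (SD, n = 3) in DFX-treated tumors, a log2 fold change of 0.18 with a standard error of 0.26. Its 95% interval ran from -0.45 to 0.81, which is 0.733-fold to 1.76-fold on the linear scale (adjusted p = 0.857, limma). Changes within that interval are left undecided by these 6 tumors.

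CEACAM6, a GPI-anchored adhesion protein whose gene follows CEACAM5 on the chromosome, had log2 intensities of 14.93, 14.64 and 14.21 in the control tumors. In the DFX-treated tumors it had 14.88, 14.77 and 14.79. Again the control tumors held both the highest and the lowest value. The means were 14.59 ± 0.36 (SD, n = 3) and 14.81 ± 0.060 (SD, n = 3). This gave a log2 fold change of 0.22, with a standard error of 0.19 and a 95% interval of -0.25 to 0.69, or 0.838-fold to 1.62-fold (adjusted p = 0.768, limma). Without control replicate 3 the log2 fold change was 0.029. No CEACAM6 spot was saturated.

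CEACAM5 and CEACAM6 ordered the 6 tumors identically, from control replicate 3 at the bottom through control replicate 2, DFX replicates 2, 3 and 1, to control replicate 1 at the top. Their probes lie on different genes, and the longest run that the 2 probes share is 7 bases. Binding of either probe to the RNA of the other gene was not tested, and both were read on the same arrays. The relation is therefore given as a description of these 6 tumors only.

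CEACAM7, the member of colon and pancreatic duct epithelium, was measured by 2 probes. On A_24_P228302 the control tumors had log2 intensities of 12.86, 12.88 and 12.21 and the DFX-treated tumors 12.98, 12.84 and 12.57. Control replicate 3 was again the lowest, and the other tumors of both groups were interleaved. The means were 12.65 ± 0.38 and 12.80 ± 0.21 (SD, n = 3 each), and the log2 fold change was 0.15 with a 95% interval of -0.40 to 0.69 (adjusted p = 0.866, limma).

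The probe A_33_P3254844 of CEACAM7 gave 7.20, 6.36 and 6.19 in control, against 7.16, 7.21 and 7.02 in DFX-treated tumors. All DFX-treated tumors were above control replicates 2 and 3, but control replicate 1 lay among them. The log2 fold change was 0.54, its standard error 0.27 and its 95% interval -0.13 to 1.21. This was the largest difference among the member probes, and it did not pass the threshold (unadjusted p = 0.0943, adjusted p = 0.643, limma). A larger change in size was found for 10.3% of all tested probes. Without control replicate 1 the log2 fold change was 0.85, with an unadjusted p of 0.00137 and an adjusted p of 0.571 in limma, so whether this probe was called rested on that tumor. Its change was smaller on the raw mean signal, at 0.28, and with normexp background correction, at 0.30. The changes of the 2 CEACAM7 probes differed by 0.40 on the log2 scale, which did not exceed the spread between tumors (exact two-sided permutation test, p = 0.2; the smallest p that 3 against 3 tumors allow is 0.1).

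CEACAM1, the member with inhibitory signaling motifs, was also measured by 2 probes. A_24_P382319 gave 12.62, 12.67 and 12.55 in control and 12.57, 12.38 and 12.76 in DFX-treated tumors. The control tumors were close to each other here and lay between the highest and the lowest DFX-treated tumor. The log2 fold change was -0.042 with a 95% interval of -0.36 to 0.27 (adjusted p = 0.942, limma), which is 0.780-fold to 1.21-fold. A_33_P3268507 gave 9.16, 9.34 and 8.88 in control and 9.19, 9.04 and 8.79 in DFX-treated tumors, for a log2 fold change of -0.12 with a 95% interval of -0.54 to 0.30 (adjusted p = 0.854, limma). The tumor with the highest value, DFX replicate 3, on the first of these probes had the lowest value on the second. The array annotation names a different CEACAM1 transcript for each probe. Their changes differed by -0.081, within the spread between tumors (exact two-sided permutation test, p = 0.8).

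CEACAM19, a transmembrane member outside the main gene cluster, had 10.04, 10.23 and 10.14 in control and 10.19, 10.33 and 9.95 in DFX-treated tumors. Both the highest and the lowest value were in DFX-treated tumors. Its log2 fold change of 0.022 was the smallest of the tested members (95% interval -0.31 to 0.35; adjusted p = 0.975, limma), and 92.0% of all tested probes had a larger one in size.

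CEACAM8, the granulocyte marker, was not well above background on any of the 6 arrays. Its linear signal before normalization was 7.10, 3.46 and 3.46 in control and 6.82, 5.27 and 6.86 in DFX-treated tumors. These values are at background, and no fold is given. It was not tested, because its detection p-value was under 0.05 on 3 arrays only.

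**Figure D2:**
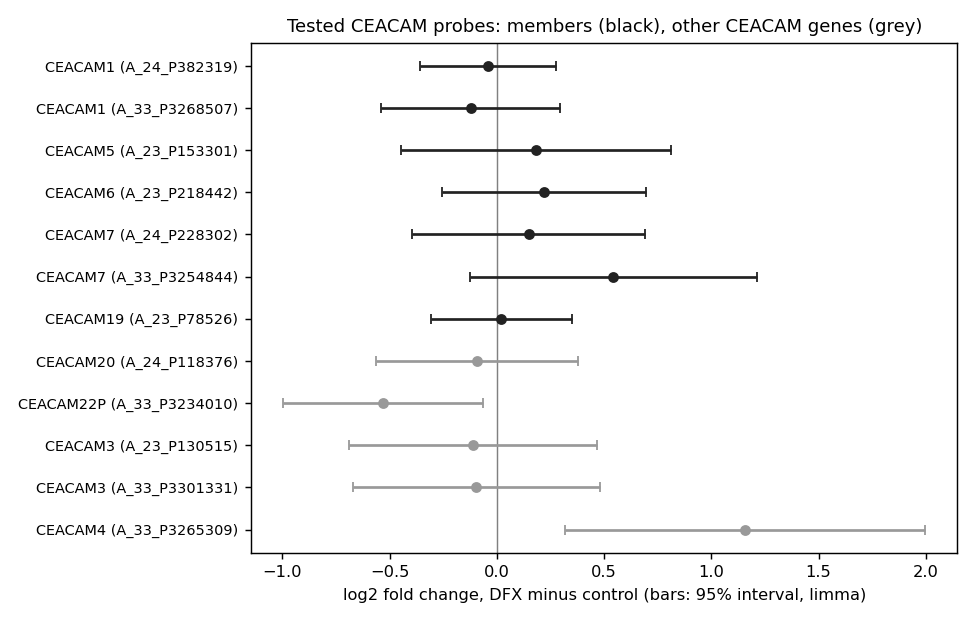
Log2 fold change of DFX-treated against control tumors (horizontal axis) for each tested probe of the CEACAM genes, with the 95% interval from limma (n = 3 per group). Black points are the 7 tested member probes, all with an interval that includes 0, and grey points are CEACAM3, CEACAM4, CEACAM20 and CEACAM22P, of which CEACAM4 and CEACAM22P were well above background on no array.

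The spread between tumors was itself uneven. The SD of CEACAM5 among control tumors was 9.05 times that among DFX-treated tumors, and a larger ratio was found for 2.21% of all tested probes. For CEACAM6 the ratio was 6.04 (4.51% of tested probes had a larger one), and for CEACAM7 A_33_P3254844 it was 5.44 (5.37%). CEACAM1 A_24_P382319 and CEACAM19 went the other way, with ratios of 0.302 and 0.495. In all, 5 of the 7 tested member probes had the larger SD in control tumors, as did 53.7% of all tested probes. A difference in spread was not tested, with 3 tumors per group.

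The labelled tissue was checked by epithelial markers. All 8 (EPCAM, CDH1, KRT7, KRT8, KRT18, KRT19, CLDN4 and MUC1) were well above background on every array. Of these, 3 were called by limma at an unadjusted p under 0.05, all higher in DFX-treated tumors, where 10.6% of all tested genes had a called probe. EPCAM, an epithelial adhesion molecule, rose from 13.31 ± 0.12 to 13.74 ± 0.080 (SD, n = 3), and KRT8 and KRT18, the keratins of simple epithelium, rose by 0.48 and 0.27 on the log2 scale on their brightest probes. KRT19 and KRT7, the brightest genes of the list, had log2 fold changes of 0.022 and -0.17 and were not called. The adjusted p of EPCAM, KRT8 and KRT18 was 0.514 to 0.575 in limma, and 1 of the 8 genes was called when control replicate 3 was left out, as also when either DFX replicate 1 or 2 was. Relative to the control mean, the mean of the 8 genes was 0.12, 0.090 and -0.21 in control replicates 1 to 3, against 0.27, 0.27 and 0.21 after DFX. The tumor lowest in CEACAM5, CEACAM6 and both CEACAM7 probes, control replicate 3, was thus also lowest in the mean of this list. MUC1 stood out there, with 13.11, 13.34 and 11.55 in control replicates 1 to 3. EPCAM, KRT8, KRT18 and CLDN4 were also lowest in control replicate 3 on their brightest probes. KRT7 was highest in it, CDH1 was lowest in control replicate 2, and KRT19 was tied. The part of the shift in epithelial markers in the CEACAM values was not tested.

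Taken relative to the mean of the 8 epithelial genes on the same array, the changes of CEACAM5 and CEACAM6 were -0.069 and -0.031 on the log2 scale. CEACAM7 had -0.10 and 0.29 on its 2 probes, CEACAM19 had -0.23, and CEACAM1 had -0.29 and -0.37. On this scale the groups did not overlap for CEACAM1 A_33_P3268507 alone among the members, lower in DFX-treated tumors (exact two-sided permutation test, p = 0.1, the smallest it can give). Such a separation was found for 31.7% of all tested probes on the same scale, and 30.5% were separated downward. This comparison was added after the values had been seen.

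Colon epithelial markers were listed beside CEACAM7. Of 15 genes on that list 11 had a tested probe, and 8 of these were called at an unadjusted p under 0.05 in limma, 7 higher and 1 lower in DFX-treated tumors, where 10.6% of all tested genes had a called probe. Among the higher ones, KRT20 and CDX2 had log2 fold changes of 2.46 and 1.17, VIL1 one of 1.33 and GPA33 one of 2.15. Without control replicate 3, the lowest tumor in this list, these values were 0.77 for CDX2, 0.74 for VIL1 and 1.30 for GPA33. GPA33 and VIL1 each lost the call under 8 of 20 alternatives, among them those without control replicate 1, DFX replicate 1 or 2. FABP1 and CA1 were also higher but well above background in only 1 control tumor each, and GUCA2A was so in none and was at least 1.83-fold higher. CLCA4 was lower, with a log2 fold change of -0.82. Both CA1 and CLCA4 lost the call when control replicate 1 or 3 or DFX replicate 1 or 2 was left out. The count of 8 became 4 without control replicate 1 or DFX replicate 2 and 5 without control replicate 3 or DFX replicate 1. LGALS4, a galectin, was not called, with 9.64 ± 1.97 in control and 11.30 ± 0.44 in DFX-treated tumors (SD, n = 3). Over the 11 genes the median log2 fold change came to 1.66, against -0.012 for all tested genes, and earlier results on these tumors had already shown a rise of intestinal genes. The summed linear signal of the 15 genes overlapped, at 9705 to 12254 in control and 10199 to 11722 in DFX-treated tumors. In that sum bright genes such as CLCA4 weigh most, whereas the median counts dim genes equally. CEACAM7, also a gene of colon epithelium, had log2 fold changes of 0.15 and 0.54 and was not called. The mean of the list relative to the control mean was 0.13, 0.74 and -0.87 in control replicates 1 to 3, against 1.66, 1.84 and 1.0 after DFX. Control replicate 1, the highest tumor in CEACAM5 and CEACAM6, was below all DFX-treated tumors here.

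**Figure D3:**
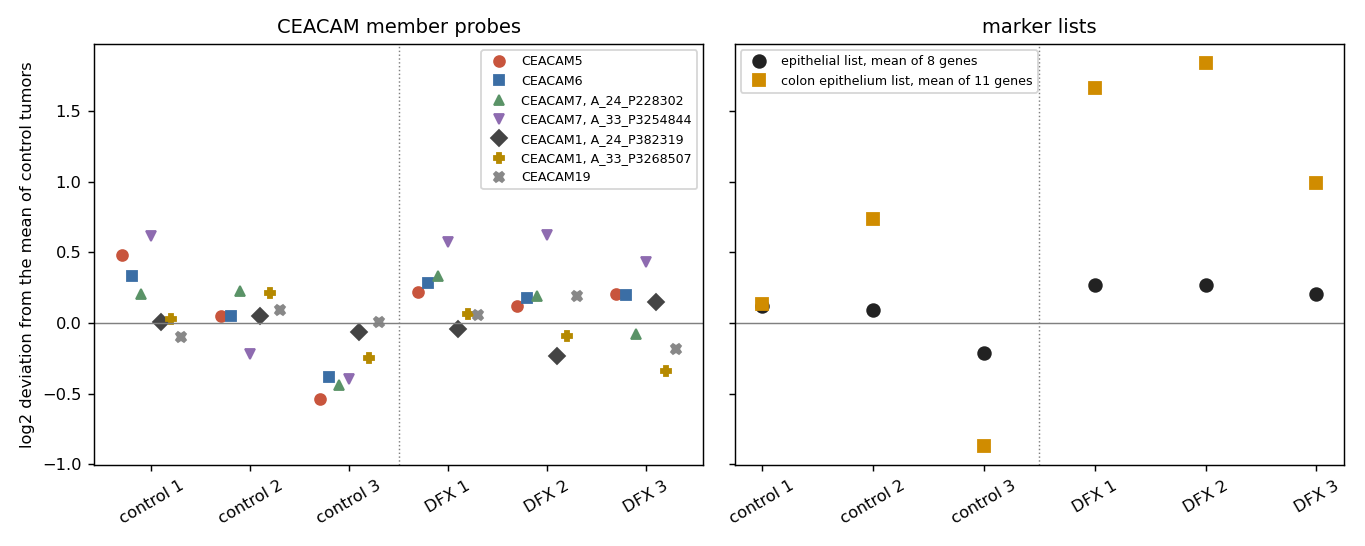
Deviation of each tumor from the mean of the control tumors on the log2 scale (vertical axis), for the 7 tested CEACAM member probes (left) and for the mean of the epithelial and colon epithelium marker lists (right). Control replicate 3 is the lowest tumor in both lists, in CEACAM5, CEACAM6 and both CEACAM7 probes, and the colon epithelium list lies at 1.0 to 1.84 in the DFX-treated tumors.

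Human granulocyte markers were listed because granulocytes carry CEACAM8. Of 12 such genes on the array, 3 were well above background on all 6 arrays on 1 probe or more (CD177, CSF3R and PTPRC). Another 5 were so on no array, among them the defining granule proteins MPO, AZU1 and LTF. The human cells of these tumors came from the BxPC-3 line, so the values are not read as a number of granulocytes. Binding of RNA from host leukocytes to these human probes was not tested. ELANE, the gene of neutrophil elastase, was well above background in DFX replicate 1 only. CD177 was lower on 1 of its probes (log2 fold change -0.60, unadjusted p = 0.00438, limma), with -0.22 on its brightest probe. PRTN3 was well above background in 2 control and no DFX-treated tumors and was at least 1.05-fold lower. Of the 6 granulocyte genes with a tested probe 2 were called (33.3%, against 10.6% of all tested genes), and 1 when either control replicate 1 or 3 was left out, as also when DFX replicate 1 was. The summed linear signal of the 12 genes was 558 to 957 in control and 636 to 715 in DFX-treated tumors. CSF3R, a growth factor receptor of granulocytes, had a log2 fold change of 0.24 and was not called. S100A12 had the largest SD among control tumors in this list, at 8.53, 4.25 and 6.54.

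The other genes of the CEACAM and pregnancy-specific glycoprotein (PSG) family were mostly at background. Of 15 on the array, 9 were well above background on no array and 6 had a tested probe. Limma called 4 of the 6 at an unadjusted p under 0.05 (66.7%, against 10.6% of all tested genes). Among these 4, 1 was higher and 3 were lower in DFX-treated tumors. The count was 2 with normexp and 1 under a filter on signal well above background. CEACAM3, which is known as a phagocytic receptor of granulocytes, was well above background on all arrays on both of its probes, with log2 fold changes of -0.11 and -0.096. Its probe A_33_P3301331 gave 8.83, 9.21 and 8.40 in control and 8.93, 8.73 and 8.48 in DFX-treated tumors, which overlapped. The annotated positions of the 2 CEACAM3 probes share bases, so they are not independent measurements. CEACAM20 was also well above background on all arrays, with a log2 fold change of -0.093. PSG8, a glycoprotein gene of the placenta, was lower on 1 of its 3 probes (log2 fold change -0.59, unadjusted p = 0.0106, limma), and its other probes gave -0.22 and -0.62 and were not called. PSG6 was well above background in 2 control and no DFX-treated tumors and was at least 1.2-fold lower. CEACAM4 and CEACAM22P also passed the unadjusted threshold, but no array showed either well above background. Over the 6 genes the median log2 fold change was -0.16, and no probe of theirs had an adjusted p below 0.513 in limma.

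Among 23 tested genes for signaling partners of CEACAM1, 2 were called, near the 10.6% of all tested genes. PTPN11, the phosphatase recruited by the CEACAM1 tail, was higher on 1 probe, from 7.51 ± 0.085 to 8.0 ± 0.15 (SD, n = 3; unadjusted p = 0.00722, limma). PXN, the focal adhesion protein paxillin, was lower on 1 probe by a log2 fold change of -0.80. Neither was the brightest probe of its gene, which gave -0.13 for PTPN11 and 0.016 for PXN, and another tested PXN probe gave 1.35 without being called. ANXA2 and LGALS3, the brightest of these genes, had log2 fold changes of 0.018 and -0.074. Over the 23 genes the median was -0.0069. Of the 28 tested genes for enzymes that build, attach, remodel or cleave the GPI anchor, 1 was called (3.57%). This was DPM2, a subunit of the mannose donor synthase, at -0.70 on a probe well above background in 3 control tumors and 1 DFX-treated tumor, while its brightest probe gave 0.053. PIGT and GPAA1, both of the transamidase that attaches the anchor, were the brightest, with log2 fold changes of -0.016 and 0.19. The median of these 28 genes was -0.026. The GPI count was 0 without control replicate 2, 2 without control replicate 1 and 3 without control replicate 3 or DFX replicate 1, and that of the signaling partners was 1 without control replicate 2.

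Regulators linked to CEACAM genes were called for 4 of 17 tested genes (23.5%, against 10.6% of all tested genes). CDX2, the intestinal transcription factor, rose from 7.38 ± 0.69 to 8.54 ± 0.094 (SD, n = 3), and is the same gene as counted among the colon markers. TGFB1 was lower, at -0.55. The called SMAD4 probe was well above background in 2 control tumors and no DFX-treated tumor, with log2 intensities of 3.33 to 5.05. Of the other SMAD4 probes, A_23_P27346 was well above background in control replicate 3 only and A_19_P00812250 on no array. Neither of these was tested. USF2 and KLF5, the brightest of the list, had log2 fold changes of 0.050 and -0.11. The adjusted p of CDX2, TGFB1 and SMAD4 was 0.514 to 0.555 in limma, and the median of the 17 genes was 0.020. Without control replicate 1 or DFX replicate 3 the count was 2.

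Genes with a pattern over the 6 tumors most like that of a member were looked up among 19273 probes with gene names that were well above background on all arrays. The measure was Pearson's r of log2 values over the 6 tumors, given as a description, since a search of that many probes over 6 points finds high values by its size alone. For CEACAM5 these were BCAS1, FAM3B and MYO5B (r = 0.997 to 0.999), and for CEACAM6 they were FMO5, RRAGA and GSTA5 (r = 0.998 to 0.999). For CEACAM1 A_24_P382319 they were MYO1C, ZNF799 and SUDS3 (r = 0.993 to 0.995). None of these 9 genes had an unadjusted p under 0.05 in limma.

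**Figure D4:**
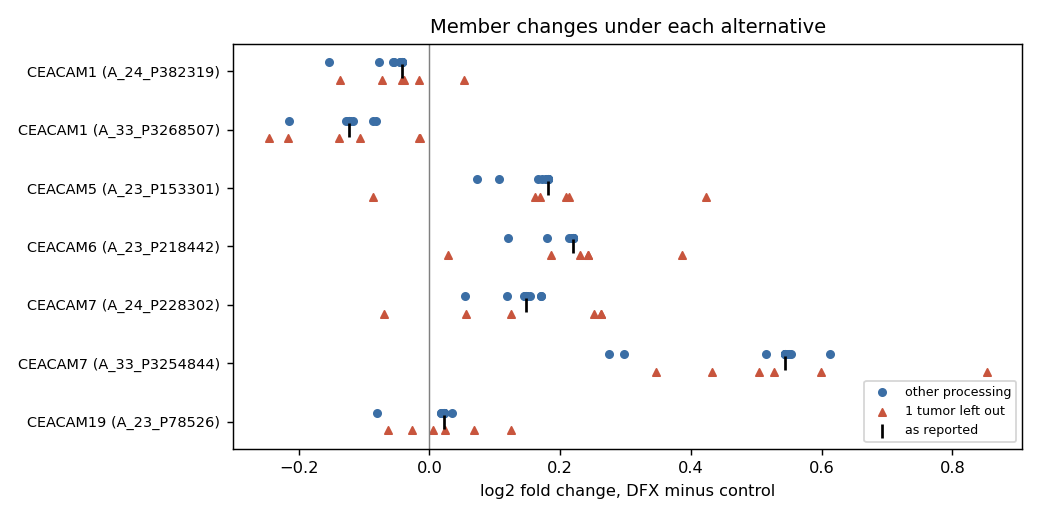
Log2 fold change of DFX-treated against control tumors (horizontal axis) for the 7 tested CEACAM member probes, as reported (black line), under other processing (blue) and with 1 tumor left out (red). The changes of CEACAM5 reach from -0.086 to 0.42 and those of CEACAM7 A_33_P3254844 from 0.28 to 0.85.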

How the data were processed

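For each array the authors deposited its scanner output, which names Feature Extraction 10.7.1.1 of Agilent as its software, whereas the submitters' processing notes name 9.5.1.1. These deposited files hold intensities on a linear scale, a p-value of each spot against its background, and other flags for outliers, saturation and signal well above background. A deposited table holds the authors' intensities after log2 transformation and quantile normalization, stored on a linear scale, and was used as an alternative. From the scanner output, log2 values of the processed signal were taken and quantile-normalized across 58717 non-control spots. The 1398 spot values flagged as outliers were left out (0 of them in member spots), and spots were averaged per probe. Probes with a detection p-value under 0.05 on all 6 arrays were tested using limma 3.58.1 (R 4.3.3), and p-values of all 31807 were adjusted by the Benjamini-Hochberg method. That p-value is two-sided, so 1201 tested probes were not positive and significant on every array. List medians take the brightest tested probe of each gene, and 1 probe past the threshold was enough to call a gene.

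Groups came from the sample titles. The members and lists were chosen with earlier results of these data known. Named genes were all members, the list genes with an unadjusted p under 0.05 and the 2 brightest tested genes of each list, and the 3 genes most like CEACAM1, CEACAM5 and CEACAM6. The others given by value were chosen after their values were seen. For 1 called list gene no values are reported here. A bound ("at least") sets the brighter group against the lowest signal well above background on each array of the dimmer group. In simulated data for this comparison (31807 probes, 200 changed), limma found 85.0% of changes of 1 and 98.0% of changes of 2 on the log2 scale at an unadjusted p under 0.05, and called 5.48% of the unchanged probes. Smaller changes, such as those of all member probes, were not simulated. The number of arrays limits the precision. Same-numbered tumors had correlations of deviations of 0.027, 0.027 and 0.016, and replicate numbers were not taken as pairs. Alternatives covered signal column, background correction, normalization, filters, outlier flags, the authors' values, test, array weights, replicate number and slide column as blocks, and each tumor left out.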

Additional observations from a re-analysis of the deposited data

How the results depend on the processing

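No member probe was called under any of the 14 other settings that kept all tumors, and 1 of 7 (CEACAM7 A_33_P3254844) was called without control replicate 1, so the count of called member probes was 0 to 1 with 1 tumor left out. Small changes of members turned their sign in 6 cases. CEACAM19 was at -0.081 with median scaling, under which the median over all tested probes was -0.10, at -0.026 without control replicate 1 and at -0.064 without DFX replicate 2. CEACAM5 was at -0.086 and CEACAM7 A_24_P228302 at -0.070 without control replicate 3, and CEACAM1 A_24_P382319 at 0.052 without DFX replicate 2. CEACAM6, CEACAM1 A_33_P3268507 and CEACAM7 A_33_P3254844 kept their sign, but CEACAM6 ranged from 0.029 (without control replicate 3) to 0.39 (without control replicate 1) and CEACAM1 A_33_P3268507 from -0.25 (without control replicate 3) to -0.014 (without DFX replicate 3). With 1 tumor left out, log2 fold changes were -0.14 to 0.052 for CEACAM1 A_24_P382319, -0.086 to 0.42 for CEACAM5, -0.070 to 0.26 for CEACAM7 A_24_P228302 and -0.064 to 0.12 for CEACAM19. The cause of these moves was not tested. One filter, on probes positive and significant on all arrays, was chosen after seeing the data.

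The number of probes with an unadjusted p under 0.05 was 2675 in limma, 4927 with the Kruskal-Wallis H test and 1889 to 2717 with 1 tumor left out. At an adjusted p under 0.05 it was 0 in limma, 2 with the raw mean signal, normexp, median scaling or a filter on signal well above background, and 3 with array weights. Of the called probes 58.8% were lower, against 42.6% when arrays were scaled to their 75th percentile and 71.8% when scaled to their median.

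Called genes per list, where they moved by over 1.5 times, were as follows. Other CEACAM and PSG genes numbered 4, but 2 with normexp and 1 among probes well above background. Signaling partners numbered 2, but 5 with the Kruskal-Wallis H test. GPI enzymes numbered 1, but 0 with normexp, 7 with the Kruskal-Wallis H test, and 2 without a filter, among probes well above background or without moderation. Epithelial genes numbered 3, but 1 with median scaling. Granulocyte genes numbered 2, but 1 with the raw mean signal, normexp, probes well above background or the replicate block. Colon genes numbered 8, but 5 among probes well above background and 4 without moderation. With 1 tumor left out the counts were 3 to 4, 1 to 3, 0 to 3, 1 to 3, 1 to 3 and 4 to 8 in that order, and 2 to 4 for the 4 regulators. The replicate block changed no member call, with 0 of 7 called. Signal near background limits CEACAM8, CEACAM4, CEACAM22P, PSG6 and SMAD4.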
